A study of Drosophila melanogaster with 8 samples.

Results

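Flies smell and taste through the odorant receptors (Or), the gustatory receptors (Gr) and the ionotropic receptors (Ir), and the genes of these families were measured here in heads with neuronal knockdown of ND-75. ND-75 is the Drosophila homolog of NDUFS1, a core subunit of mitochondrial complex I. Members were chosen by symbol alone: every gene of the deposited table named Or, Gr or Ir followed by a number and a letter, together with Orco. This gave 141 of the 13982 genes in the table, made up of 39 Or (Orco included), 49 Gr and 53 Ir. A later Ensembl annotation holds 186 genes with such symbols, and the other 45 were not analysed here. No row of the table had fewer than 2 reads in all 8 libraries, and why these 45 are absent was not tested. All 141 had the same start and end in that annotation as in the table.

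RNA was sequenced from heads of 2 day old flies, with 20 heads (10 male and 10 female) pooled in each library. The 4 Control libraries carried the neuronal driver and w[1118] (nSybGal4/w[1118]), and the 4 ND-75KD libraries carried the same driver and the RNAi line (nSybGal4/ND-75 RNAi). The labels do not name Tub-Gal80ts, which the paper gives as part of the driver. The Control flies lacked the RNAi line, so knockdown and the genetic background of that line cannot be told apart, and the paper describes this RNAi as leaky without a driver. Each library is its own pool of heads, but whether crosses were shared is not stated, and p values therefore reflect pool to pool spread, which may be technical. A head library also holds RNA of glia, fat body, muscle and support cells that nSyb-Gal4 does not target. In such bulk RNA fewer cells of a type and less RNA per cell cannot be told apart.

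An odorant receptor is a channel built from a tuning subunit, which binds the odour, and Orco, the co-receptor that most olfactory neurons share. The ionotropic receptors are relatives of glutamate receptors, and their tuning subunits work with the co-receptors Ir25a, Ir8a, Ir76b and Ir93a in smell, taste, and the sensing of temperature and humidity. Gustatory receptors detect sugars, bitter compounds, some pheromones and, in the antenna, carbon dioxide. Each tuning receptor is usually made by few neurons of the antenna, maxillary palp, proboscis or legs, so its RNA can be a very small part of a head library.

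Library totals were 21758154 to 24680283 counts in Control and 17448199 to 24071517 in ND-75KD. Control replicate 2 stood apart, with a scaling factor (TMM) of 0.651 against 0.940 to 1.15 in the other libraries. The targeted gene, ND-75, was at 626 ± 64.9 CPM (SD, n = 4; CPM are read counts scaled to a common library size) in Control and 306 ± 16.0 (n = 4) in ND-75KD, a log2 fold change of −1.03 (SE 0.11, edgeR quasi-likelihood adjusted p = 1.48e-04), and the groups did not overlap. Neuronal and photoreceptor markers were abundant in every library, with a summed level of at least 4740 CPM for 11 neuronal markers and at least 19543 CPM for 9 photoreceptor markers. Markers of antennal support cells were uneven. Of the 14 measured, 7 passed the low count filter, with Obp19d at 422 CPM, Obp57a at 27.3, Obp28a at 16.4, nompA at 5.55 and lush at 5.05 CPM in Control. The other 7 had 2 to 81 reads in all 8 libraries together. Obp83a, an odorant binding protein of the antenna, had a mean of 0.455 CPM in Control and 0.382 CPM in ND-75KD. The gene a5, of an antennal protein, had 2 reads in all. How much antennal tissue the libraries held was not tested, so low receptor RNA and little antennal tissue cannot be told apart.

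Few receptor genes were measured well. The members together had 733 to 1868 reads in a Control library and 1113 to 1514 in an ND-75KD library, and only 20 to 35 and 24 to 30 of them, respectively, reached 10 reads in a library. The low count filter passed 29 of the 141 members (20.6%), against 71.4% of all genes in the table. These were 7 Or, 12 Gr and 10 Ir. The other 112 had 2 to 67 reads in all 8 libraries together, with a median of 11. As background, the level of genes made in organs that a head does not have was used, from a list of testis, male accessory gland and larval salivary gland genes. Of its 39 genes, 24 were in the table. The 90th percentile of their mean level over the 8 libraries was 0.309 CPM per kilobase of gene length (CPM per kb). The listed genes not in the table were left out of this percentile. No row of the table had fewer than 2 reads in all. Counting the missing genes as unread would lower the level and add members above it. Of the members, 25 lay above 0.309 CPM per kb, and all 25 had passed the filter. Their levels too are means over both genotypes. Gr58c, at 0.0481 CPM in Control and 2.71 in ND-75KD, is among the 25 through ND-75KD alone. The members nearest to it were Gr28b, just inside at 0.315 CPM per kb, and Or13a, just outside at 0.294 CPM per kb. Gr47b, Ir54a, Ir100a and Gr64f passed the filter but stayed under the level, at 0.278, 0.272, 0.256 and 0.234 CPM per kb. The choice of level set this count: 41 members lay above the 75th percentile of the list and 11 above its highest gene, mia at 0.990 CPM per kb.

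**Figure D1:**
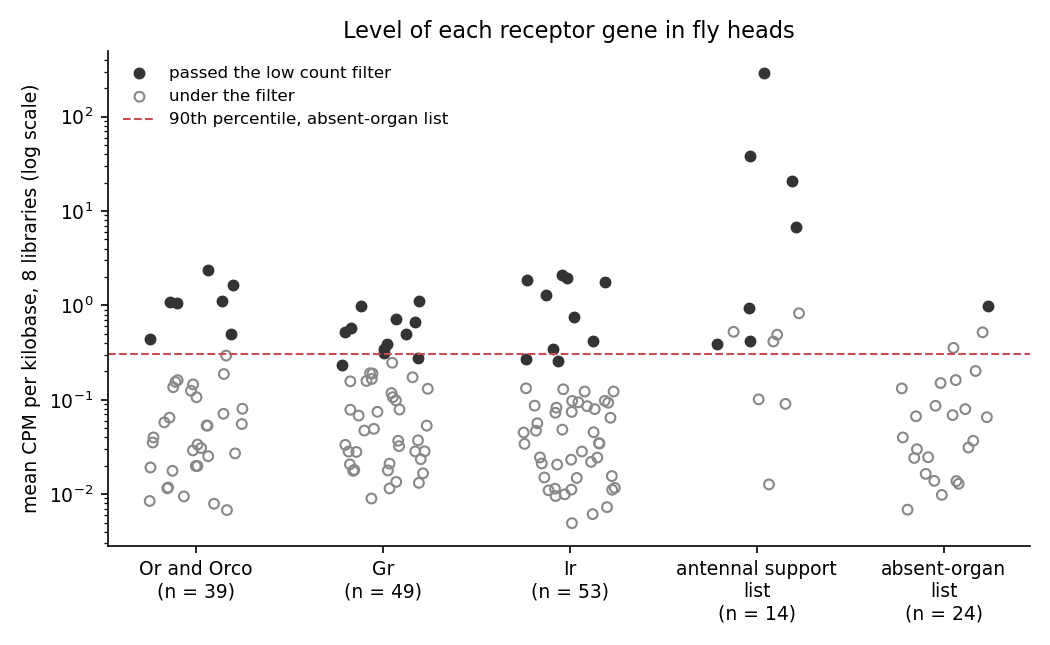
Mean level of each receptor gene over 8 libraries, in CPM per kb on a log axis, by family, beside the antennal support list and the absent-organ list; each point is a gene, filled where it passed the low count filter. All 25 members above the dashed line (0.309 CPM per kb, the 90th percentile of the absent-organ list) are filled points, and no member exceeds 2.40 CPM per kb.

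Per length, the member with the highest mean level over the 8 libraries was Or63a, an odorant receptor known from the larval olfactory organ, at 2.40 CPM per kb. It was followed by Ir68a (2.11 CPM per kb), a subunit of the moist sensing receptor of the antenna, Ir62a (1.96), Ir76b (1.85), Ir76a (1.75), Or43b (1.64) and Ir25a (1.28). Gr58c, Orco, Or85f and Or1a lay between 1.07 and 1.11 CPM per kb, and these 11 were the members above mia. Over the 29 tested members in this order, 27 of the 28 pairs of neighbours differed by less than the larger of their SDs over the 8 libraries. The exception was Or43b and Ir25a, with a gap of 0.352 CPM per kb beside SDs of 0.342 and 0.352. These SDs include the difference between genotypes, and neighbours in a ranked list lie close by construction. The order is therefore a description and was not tested. It also rests on means over both genotypes. Gr58c was at 0.0481 CPM in Control and 2.71 in ND-75KD, so its place comes from ND-75KD alone. Or63a was at 6.25 CPM in Control and 1.99 in ND-75KD. In ND-75KD it was below Or43b (2.60 CPM) and Gr58c, both shorter genes, and so was not the highest per length there.

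In the comparison of ND-75KD with Control, 6 of the 29 tested members (20.7%) were called at an adjusted p under 0.05, against 33.2% of all 9986 tested genes and 23.6% of the 2085 tested genes in the same range of mean level (0.338 to 5.15 CPM). The share of members called was therefore not above that background. Or63a, Or1a and Ir25a were lower and Gr58c, Gr64a and Ir76a were higher in ND-75KD. These were 3 lower and 3 higher members, against 18.9% and 14.3% of all tested genes, and DESeq2 called the same 6. In 4 of the 29 (13.8%) no library of one genotype lay within the other, namely Or63a, Ir25a, Gr58c and Gr64a, against 36.2% of all tested genes and 24.1% in the same range of level. The log2 fold change was negative in 20 and positive in 9 of the 29, with a median of −0.23, beside a median of −0.01 over all tested genes. Members that passed the filter include those that passed through one genotype alone, as Gr58c did, so this median is that of the measured members and not of the families. Without Control replicate 2, the library that stood apart, 2 members were called higher (Gr58c and Gr64a) and 4 lower (Or63a, Or1a, Ir25a and Orco).

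**Figure D2:**
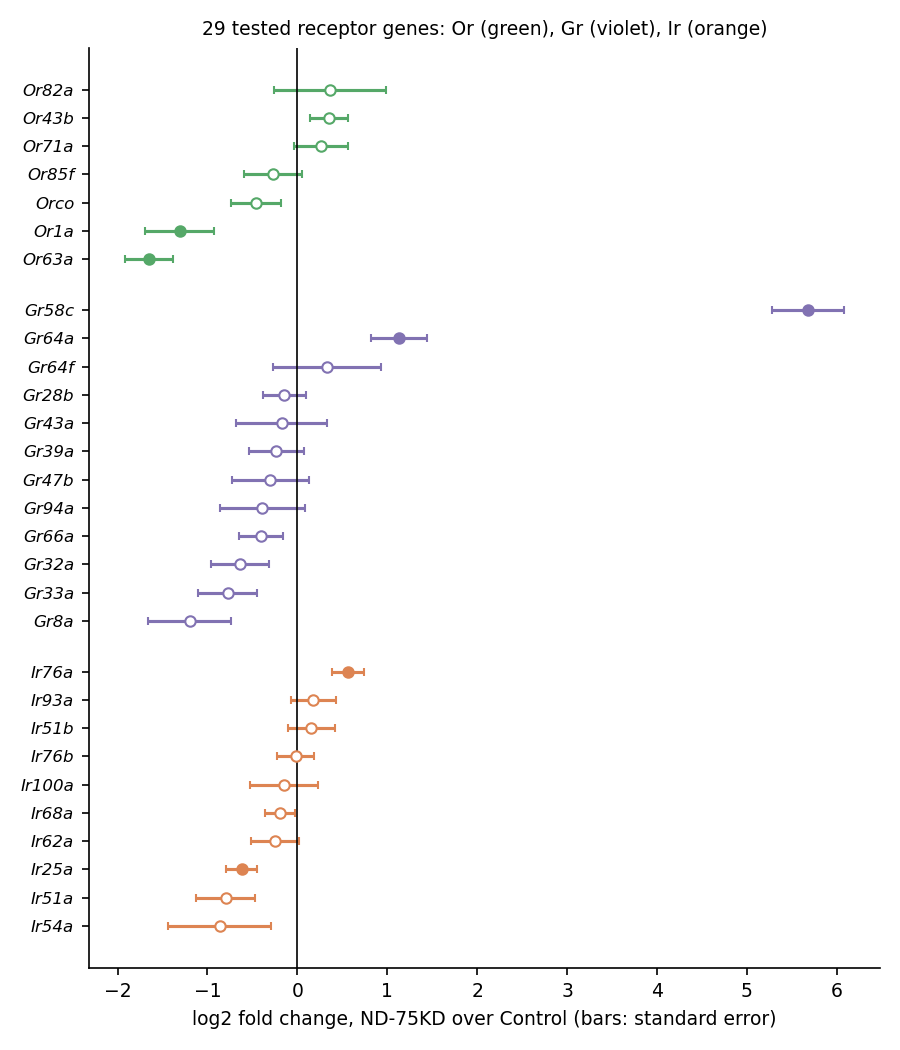
Log2 fold change of ND-75KD over Control for the 29 tested receptor genes, by family, with bars for the standard error; filled points are called by edgeR at an adjusted p under 0.05 and open points are not. Gr58c lies at 5.68, far from the other members, which lie between −1.65 and 1.13.

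Among the odorant receptors the tested genes were Or63a, Or1a, Orco and 4 receptors of adult olfactory neurons. Or63a (FBgn0035382, chromosome 3L, 2961534 to 2963788, plus strand) was at 5.04, 4.80, 5.80 and 9.34 CPM in Control replicates 1 to 4 and at 2.38, 1.25, 2.38 and 1.96 CPM in ND-75KD replicates 1 to 4. Every ND-75KD library was below every Control library, and Control replicate 4 was the highest. The log2 fold change was −1.65 (SE 0.27, adjusted p = 0.00137). It stayed between −1.75 and −1.39 when each library was left out in turn, and the gene was called under all 17 alternatives. The neighbouring genes CG34025, 485 bases away, and Shab, a potassium channel gene 1955 bases away, had log2 fold changes of 0.45 and 0.00 and were not called.

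Or1a (FBgn0029521, chromosome X, 315123 to 316566, plus strand), another receptor known from larval olfactory neurons, was at 2.01, 0.636, 1.54 and 2.99 CPM in Control and at 0.645, 0.700, 0.793 and 0.812 CPM in ND-75KD. Control replicate 2 lay just below the lowest ND-75KD library, so the groups overlapped through that library, and the other Control libraries were all higher than ND-75KD. The log2 fold change was −1.31 (SE 0.39, adjusted p = 0.0253), and 7 of 16 alternatives ended the call at adjusted p values of 0.0543 to 0.0641. These were the removal of the gene length trend and leaving out Control replicate 1 or 4 or any of the ND-75KD replicates. Or1a lies within the span of CG3777 without sharing exon bases, and it lies 10 bases from CG32816, a gene on the opposite strand that was higher in ND-75KD (log2 fold change 1.13, SE 0.15, adjusted p = 5.00e-04).

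Orco (FBgn0037324, chromosome 3R, 5407183 to 5412406, minus strand), the shared co-receptor, was at 2.74, 1.27, 2.34 and 3.48 CPM in Control and at 1.74, 2.20, 1.46 and 1.88 CPM in ND-75KD. The lowest value of all was that of Control replicate 2, and the groups overlapped. This gave a log2 fold change of −0.46 (SE 0.28, adjusted p = 0.227). Leaving out Control replicate 2 moved it to −0.65 (SE 0.22) with an adjusted p of 0.0401, so this library decided whether Orco was called.

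Of the receptors assigned to adult antennal or palp neurons, the table holds 29, and 4 were tested. None of the 4 was called, 0 had an unadjusted p under 0.05 in edgeR, and DESeq2 also called 0. Over all tested genes in the members' range of level 23.6% were called, so 0 of 4 says little about this class. Or43b, a receptor of antennal basiconic sensilla, was at 2.02 ± 0.496 CPM (SD, n = 4) in Control and 2.60 ± 0.267 (n = 4) in ND-75KD (log2 fold change 0.35, adjusted p = 0.221). It shares 575 of its 1412 exon bases with Cul1, a ubiquitin ligase subunit gene on the opposite strand at 198 CPM that was itself higher in ND-75KD (log2 fold change 0.30), and without a stated strand setting reads of the pair cannot be told apart. Or85f was at 1.42 ± 0.546 CPM in Control and 1.17 ± 0.335 in ND-75KD, with a log2 fold change of −0.27. Or82a, a geranyl acetate receptor, varied more between libraries than between genotypes, with 0.140 to 0.983 CPM in Control and 0.185 to 0.950 in ND-75KD. Or71a, of the maxillary palp, was at 0.668 ± 0.175 CPM in Control and 0.770 ± 0.187 in ND-75KD. Or13a, which did not pass the filter, had 3 to 14 reads in Control and 4 to 14 in ND-75KD libraries.

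The ionotropic receptors included the members with the most reads. Ir25a (FBgn0031634, chromosome 2L, 4830846 to 4835300, minus strand), the most widely used co-receptor of the family, was at 6.84, 4.45, 5.38 and 5.62 CPM in Control and at 4.22, 3.25, 3.17 and 3.91 CPM in ND-75KD. The groups did not overlap, though the lowest Control library and the highest ND-75KD library were close. The difference was −0.62 on the log2 scale (SE 0.17, adjusted p = 0.0204). The call was lost without Control replicate 1 (log2 fold change −0.47) or 3, or without ND-75KD replicate 2 or 3, at adjusted p values of 0.0529 to 0.0640.

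The other co-receptors did not pass the test. Ir76b (FBgn0036937), a co-receptor for amines and for salt and amino acid taste, was at 5.04, 2.90, 4.58 and 4.61 CPM in Control and at 3.67, 4.60, 3.46 and 5.28 CPM in ND-75KD. The groups overlapped throughout, and the log2 fold change was −0.02 (SE 0.21, adjusted p = 0.950). Ir93a, a co-receptor in temperature and humidity sensing, was at 0.887 ± 0.0844 CPM in Control and 1.02 ± 0.236 in ND-75KD, with a log2 fold change of 0.18 (SE 0.25). Ir8a, the co-receptor of acid sensing neurons, had 3 reads in all, each of them in ND-75KD replicate 4. Whether the change in Ir25a differed from those in Ir76b and Ir93a was not tested.

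Ir76a (FBgn0260874, chromosome 3L, 19799278 to 19803427, plus strand), a tuning subunit for amines in the antenna, was at 2.99, 2.47, 2.76 and 3.68 CPM in Control and at 4.96, 4.35, 3.55 and 4.84 CPM in ND-75KD. Only ND-75KD replicate 3 lay inside the Control range. The log2 fold change was 0.56 (SE 0.18, adjusted p = 0.0360), and 6 of 17 alternatives ended the call, 5 of them by leaving out a library (Control replicate 2 or 3, or ND-75KD replicate 1, 2 or 4), at adjusted p values of up to 0.0955. Ir76a shares 297 of its 2109 exon bases with CG14102 on the opposite strand, at 3.40 CPM, which also was higher in ND-75KD (log2 fold change 0.70, adjusted p = 0.0217). The part of those shared bases in the Ir76a counts was not tested.

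The other well measured ionotropic receptors were not called. Ir68a had the highest CPM of all members, 5.50 ± 0.634 in Control and 4.80 ± 0.897 in ND-75KD, with a log2 fold change of −0.20 (SE 0.17, adjusted p = 0.387). Ir62a, at 3.86 ± 1.27 CPM in Control and 3.29 ± 0.946 in ND-75KD, lies inside the gene Iml1 and had the log2 fold change −0.25. Ir51a and Ir51b lie side by side on chromosome 2R (15204654 to 15206334 and 15207993 to 15209786). Ir51a was at 0.901 ± 0.126 and 0.523 ± 0.214 CPM in Control and ND-75KD (log2 fold change −0.80, SE 0.33, adjusted p = 0.0835). Its neighbour Ir51b was at 1.27 ± 0.356 and 1.45 ± 0.298 CPM (log2 fold change 0.16, SE 0.26). Neither passed the threshold. The subunits of the dry and cool sensing receptors, Ir40a and Ir21a, had 47 and 17 reads in all and were not tested; they were named after their values were seen.

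The largest difference of the tested members was in a gustatory receptor. Gr58c (FBgn0041237, chromosome 2R, 21976662 to 21977957, plus strand) had 1, 1, 0 and 2 reads in Control replicates 1 to 4 and 55, 59, 69 and 62 reads in ND-75KD replicates 1 to 4. In CPM these were at most 0.0809 in Control and 2.73, 2.95, 2.88 and 2.29 in ND-75KD. The gene was thus close to unmeasured in every Control library and at a similar level in every ND-75KD library. With 4 against 245 reads, the ratio of the pooled, depth-corrected levels was 56.9, with an exact conditional binomial (Clopper-Pearson) 95% interval of 21.9 to 210 that covers counting error only. The fitted log2 fold change was 5.68 (SE 0.40, adjusted p = 1.30e-05), and Gr58c was called under all 16 alternatives that tested it. The gene CG9304, 276 bases away on the same strand, was at 32.8 CPM with a log2 fold change of 0.08 (SE 0.10). Only ND-75KD flies carried the RNAi line, so for Gr58c that line and the loss of ND-75 cannot be told apart.

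Gr64a (FBgn0045479, chromosome 3L, 4026769 to 4028600, plus strand), a receptor for sugars in the Gr64 cluster, was at 0.409, 0.636, 0.889 and 0.728 CPM in Control and at 1.29, 1.60, 1.92 and 1.03 CPM in ND-75KD. All ND-75KD libraries were above all Control libraries. The log2 fold change was 1.13 (SE 0.31, adjusted p = 0.0183), and the call was lost without ND-75KD replicate 2 (1.08, adjusted p = 0.0502) or 3 (0.96, adjusted p = 0.0628). CG11594, 758 bases away on the opposite strand at 165 CPM, was lower in ND-75KD (log2 fold change −0.99, SE 0.20, adjusted p = 0.00483).

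Of the other core sugar receptors, Gr43a lay above the background level, at 0.388 CPM per kb. Gr64f (0.234 CPM per kb) and Gr5a (0.0789) lay under it. Gr64f, the co-receptor of the same cluster, had 1 to 13 reads in Control and 1 to 12 in ND-75KD libraries, and its log2 fold change of 0.33 had an SE of 0.60. Gr43a, a fructose receptor that also acts in the brain, was at 0.635 ± 0.405 CPM in Control and 0.549 ± 0.186 in ND-75KD (log2 fold change −0.18, SE 0.50). Gr5a, a trehalose receptor, had 22 reads in all and was not tested.

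The core receptors of bitter taste were measured more firmly. Of the 5 on the list, 4 were tested and 0 were called, by edgeR or by DESeq2, with 1 (Gr33a) at an unadjusted p under 0.05. Beside the 23.6% called among tested genes in the members' range of level, 0 of 4 says little about this group. All 4 log2 fold changes were negative, with a median of −0.52. Gr66a, which bitter neurons share, was at 1.56, 1.34, 2.34 and 1.86 CPM in Control and at 1.34, 1.35, 1.67 and 1.03 CPM in ND-75KD (log2 fold change −0.41, SE 0.25, adjusted p = 0.220). Gr33a, another receptor shared by bitter neurons, was at 1.01 ± 0.344 CPM in Control and 0.597 ± 0.174 in ND-75KD (log2 fold change −0.78, SE 0.33, adjusted p = 0.0942). Gr32a, used for bitter compounds and in male courtship, was at 1.32 ± 0.417 and 0.842 ± 0.296 CPM (log2 fold change −0.64, SE 0.32). Gr39a, which takes part in courtship behaviour, was at 2.35 ± 1.01 and 2.04 ± 0.321 CPM (log2 fold change −0.23, SE 0.31). Without Control replicate 1 this log2 value was 0.018. Gr89a had 5 reads in all. For each of these genes the groups overlapped.

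Gr28b, whose isoforms act in light and warmth sensing, was at 1.42 ± 0.292 CPM in Control and 1.27 ± 0.204 in ND-75KD. Gr94a was at 0.718 ± 0.358 CPM in Control and 0.552 ± 0.304 in ND-75KD, and neither was called. Gr8a, which is needed to detect canavanine, was at 0.712 ± 0.268 CPM in Control and 0.319 ± 0.172 in ND-75KD (log2 fold change −1.20, SE 0.46, adjusted p = 0.0674); it was named after its values were seen. The antennal carbon dioxide receptor is formed by Gr21a and Gr63a. They had 12 and 47 reads in all and were not tested.

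**Figure D3:**
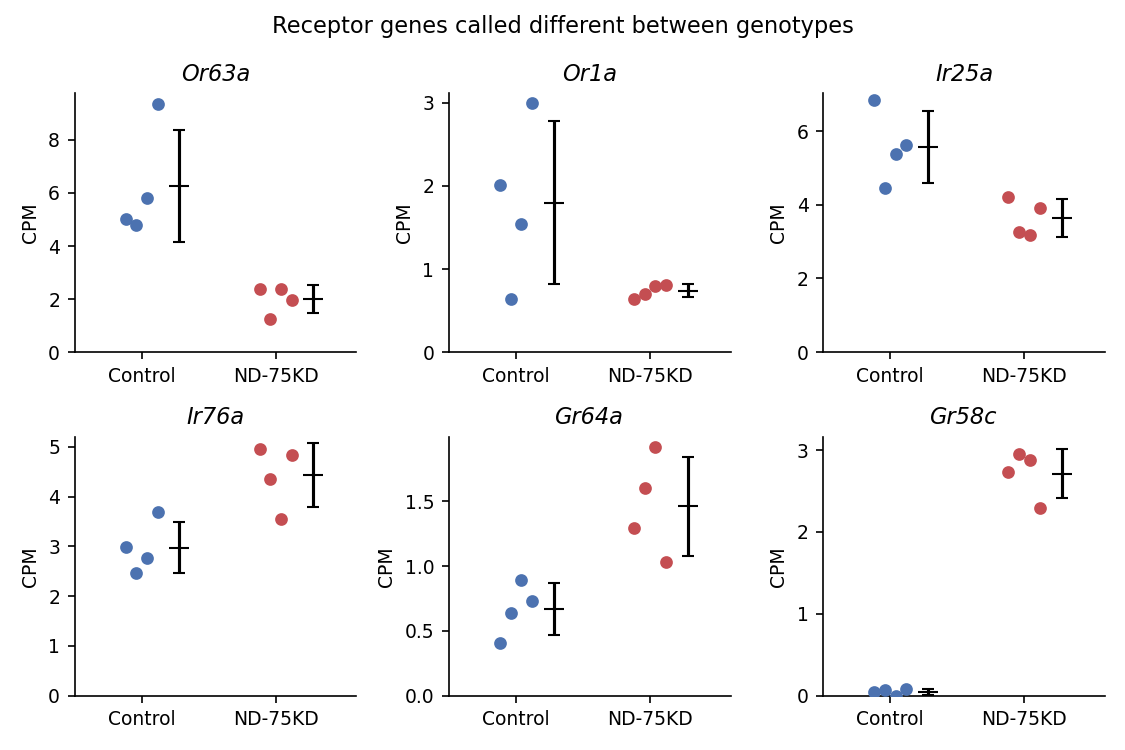
CPM of the 6 called receptor genes in each library, with points for libraries and a bar for the mean and SD of each genotype (n = 4); each panel has its own axis starting at 0. The groups separate for Or63a, Ir25a, Gr64a and Gr58c, and overlap by 1 library for Or1a and for Ir76a.

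Among the members under the filter, a fit without any filter called 3 more, at a share of 23.2% called over all 13982 genes. Each of the 3 rests on few reads. Or19b, a receptor of antennal trichoid sensilla, had 0 reads in the 4 Control libraries and 2, 2, 7 and 3 in ND-75KD, and was at least 4.33-fold higher in ND-75KD when Control was set to a floor of 3 reads over the genotype (adjusted p = 0.0253). Or85e, of the maxillary palp, had 2, 1, 2 and 5 reads in Control and 0 in ND-75KD, which is at least 3.59-fold lower against the same floor (adjusted p = 0.0349). Ir60d had 1 read in Control and 3, 3, 7 and 7 reads in ND-75KD, a ratio of 18.6 with an exact 95% interval of 2.97 to 770 (adjusted p = 0.0142). All 3 lay under the background level. Over the members under the filter, the variance of the reads between libraries of a genotype was 1.54 times that of counting error alone, and over the tested members it was 2.84 times.

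The summed level shows how the families compare when members under the filter are included; no test was run on these sums. All members together summed to 64.3 ± 10.2 CPM (SD, n = 4) in Control and 55.7 ± 0.257 (n = 4) in ND-75KD. The Control libraries ranged from 51.8 to 75.5 CPM, on either side of the ND-75KD libraries, which ranged from 55.4 to 56.0. The 6 members with the highest mean CPM gave 42.4% of the sum.

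The Or genes summed to 17.6, 14.6, 15.6 and 24.3 CPM in Control replicates 1 to 4 and to 12.8, 12.1, 12.4 and 11.9 CPM in ND-75KD replicates 1 to 4. All ND-75KD sums were below all Control sums, and the log2 ratio of the means was −0.55 (−0.37 without Control replicate 4). The 9 receptors of the larval list, which include Or63a and Or1a, summed to 8.58 ± 3.00 CPM in Control and 3.08 ± 0.610 in ND-75KD. Those 2 called genes gave most of this difference, and the other 7 of the list, none of them tested, summed to 0.536 ± 0.0570 CPM in Control and 0.353 ± 0.145 in ND-75KD. The 29 receptors of the adult antenna and palp were at 6.99 ± 1.11 CPM in Control and 7.38 ± 0.413 in ND-75KD. Without Or63a the Or sum was 11.8 CPM in Control and 10.3 in ND-75KD, and the groups overlapped.

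**Figure D4:**
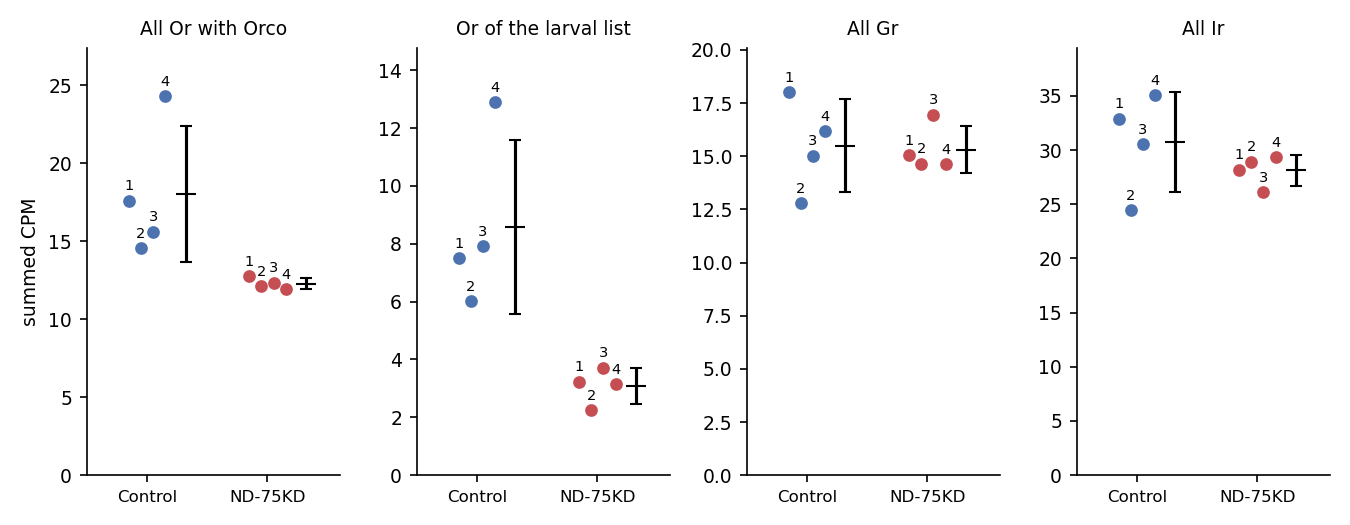
Summed CPM of all Or (with Orco), of the Or on the larval list, of all Gr and of all Ir in each library, with points numbered by replicate and bars for the mean and SD of each genotype (n = 4); axes start at 0 and differ between panels. The groups separate for the Or and the larval list and overlap for the Gr and the Ir.

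The Gr genes summed to 15.5 ± 2.19 CPM in Control and 15.3 ± 1.10 in ND-75KD, and to 15.5 and 12.6 CPM without Gr58c. The Ir genes summed to 30.7 ± 4.58 CPM in Control and 28.1 ± 1.43 in ND-75KD. In both families the genotypes overlapped. Within the Gr, the core bitter receptors summed to 6.49 ± 1.69 CPM in Control and 4.84 ± 0.125 in ND-75KD, with Control replicate 2 (4.17 CPM) below every ND-75KD library.

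Several members lie within or across other genes. This matters at these low counts, in part because the strand setting is not given in the sources used here. Of the 29 tested members, 14 lie over or inside another gene and 7 share exon bases with one. Beside Ir76a and Or43b these were Ir54a (506 of 1905 bases, with sub), Gr32a (164 bases, with CG6230), Gr43a (155, with Dhx15), Gr64f (53, with CG11593) and Gr8a (32, with CG12121). The partner genes of Gr32a, Gr43a, Gr64f and Gr8a were at 33.0 to 66.2 CPM, far above the receptors, and were not called. Or63a, Gr58c, Gr64a and Ir25a share no exon bases with another gene. Or1a, Ir62a and Or71a lie inside CG3777, Iml1 and Plp (59.4, 61.3 and 97.4 CPM), on the same strand and without shared exon bases. A strand setting would not separate unspliced reads of those genes, and their part was not tested.

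Genes on other lists drawn up for these sense organs were counted in the same fit, in which 33.2% of all tested genes were called. Of 7 tested genes of the antennal support list (median log2 fold change −0.47), 0 were higher and 3 were lower: Obp19d (422 ± 51.3 to 214 ± 31.9 CPM, log2 fold change −0.98), Obp28a (−1.09) and Obp57a (−0.84), all odorant binding proteins. The 1 positive log2 fold change of the list was that of lush, 0.72 (5.05 to 8.14 CPM, edgeR adjusted p = 0.200). Obp83a was at −0.23 (adjusted p = 0.703), and neither was called. The support list summed to 420 to 521 CPM in Control and 212 to 278 in ND-75KD, most of it Obp19d. Of 8 tested genes of the olfactory neuron list, among them the transcription factor genes acj6 and pdm3 and the pheromone co-receptor Snmp1, 0 were called by edgeR, 1 had an unadjusted p under 0.05 and DESeq2 called 1. Snmp1 was at 13.5 ± 1.29 CPM in Control and 12.8 ± 1.05 in ND-75KD. Genes of this list need not be confined to olfactory neurons. Over the 8 libraries onecut, Gycbeta100B, pdm3 and ATP8B had means of 154, 62.8, 60.6 and 52.8 CPM, beside 2.14 for Orco. Which head cells these reads came from was not tested.

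In the list of other taste and pheromone genes 1 of 8 was called, Snmp2, at 17.5 ± 1.48 CPM in Control and 12.2 ± 0.705 in ND-75KD (log2 fold change −0.53, adjusted p = 0.00368). In the list of genes for sensory cilia, the endings in which these receptors sit, 3 of 13 were called. Oseg2 and nompB, genes of transport in cilia, were higher (log2 fold changes 2.19 and 0.74), and iav, a channel subunit of hearing neurons, was lower (−1.25). The medians of these lists were −0.01 and −0.08, close to that of all tested genes.

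Some markers of other head cells differed between genotypes as well, and their part in the receptor results was not tested. Of all tested genes 14.3% were higher and 18.9% lower, so counts of 1 or 2 in lists of 6 say little. Of 11 neuronal markers 6 were higher and 0 lower (median 0.36), with summed levels of 4740 to 6222 CPM in Control and 6383 to 7129 in ND-75KD. Of 9 photoreceptor markers 4 were lower (25719 to 38937 against 19543 to 23607 CPM), of 6 fat body markers 4 were lower and 1 higher (23083 to 35421 against 3225 to 8179 CPM), of 6 glial markers 2 were lower (2563 to 3264 against 2220 to 2538 CPM), and of 6 muscle markers 1 was lower (7855 to 12643 against 8815 to 9820 CPM). Most of the fat body sum was Yp1, Yp2 and Yp3, at 4681, 9763 and 13638 CPM in Control and 971, 2382 and 1743 in ND-75KD. Of the rest, to was lower (log2 fold change −0.59), Lsp2 was not called (−0.42) and Fbp1 was higher (1.88). No defining marker of the 5 lists was at 0.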

How the data were processed

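Reads of 8 head libraries were cleaned with fastp, aligned with HISAT2 and counted per gene with featureCounts on Ensembl 102 by the authors; versions and the strand setting are not given in the sources used here. The deposited counts were used for all results. The deposited signal values are counts divided by a DESeq2 size factor by the authors, and the deposited FPKM are counts scaled by the authors to gene length and depth. The log2 fold changes and p-values deposited by the authors, from their own DESeq2 comparison, were not used. Coordinates are those of the deposited table.

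Counts were tested with edgeR 4.0.16 in R 4.3.3 (filterByExpr with minimum count 10 and minimum total count 15, which kept 9986 genes; TMM; quasi-likelihood test of genotype; Benjamini-Hochberg adjustment over all tested genes; called under 0.05), checked on simulated data. CPM use TMM-scaled library sizes. A standard error is the log2 fold change over the square root of F. The biological coefficient of variation was 0.171.

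The members and lists were chosen with earlier results of these data known. Named members were Orco, the Ir co-receptors, the carbon dioxide pair, core sugar and bitter receptors, called members and the 8 of each family with the highest mean CPM; from other lists, called genes with the 3 smallest adjusted p, of which some were left out. Alternatives were DESeq2 1.42.0, DESeq2 size factors, upper quartile scaling, 3 filters on low counts, voom with sample weights in limma 3.58.1, removal of the gene length trend (loess, span 0.5), the replicate number as a block, and each library left out.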

Additional observations from a re-analysis of the deposited data

How the results depend on the processing

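Of 25 named tested members, 22 kept their sign under every one of up to 17 alternatives. On the log2 scale Gr39a became 0.018 without Control replicate 1 (−0.46 to 0.018 over the libraries left out). Gr43a became 0.80 with voom, 0.11 without Control replicate 2 and 0.053 without Control replicate 4 (−0.48 to 0.11). Ir76b, near 0 throughout, became 0.015 with upper quartile scaling, 0.016 with at least 10 reads in every library and 0.0041 without the length trend, and ranged from −0.15 to 0.10 over the libraries left out, with 0.10, 0.041 and 0.011 without Control replicates 1, 3 and 4 and 0.044 and 0.069 without ND-75KD replicates 1 and 3. The causes were not tested. Members called higher numbered 5 without a filter, by construction over more genes, and 1 with at least 10 reads in every library, which drops Gr58c and Gr64a; leaving out each library gave 1 to 3 higher (1 without ND-75KD replicate 2) and 1 to 4 lower (1 without Control replicate 1 or ND-75KD replicate 2 or 3, and 4 without Control replicate 2). The members above background were 41 at the 75th percentile of the absent-organ list, 11 at its maximum and 42 in CPM not divided by length. Same-numbered libraries did not deviate together (correlations −0.11 to 0.03, beside −0.08 to 0.11 for other numbers). No pairing by number was seen, and whether same-numbered libraries share a cross or preparation is not stated. With the replicate number as a block in edgeR, 2 members were called higher and 3 lower, without Ir76a (0.57, adjusted p = 0.0525). In that fit 2707 genes were called in place of 3314. For the 112 members under the filter a difference was not detectable by the main test, and why their counts were low was not tested.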
